A study of Mus musculus with 12 samples.

Results

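The genes described here are the cadherins and protocadherins of C17.2 cells, immortalised neural stem cells (NSCs) of the mouse, as they appeared in lists of N6-methyladenosine (m6A) peaks on mRNAs. They were chosen by name: symbols that begin with Pcdh or Celsr, or with Cdh or Fat followed by a digit. In all, 40 such genes had a peak in at least 1 of 6 mRNA lists, of 10030 genes with a peak, and they carried 223 of the 83673 peaks. The H/R group was kept for 12 h in 5% oxygen and then returned to standard oxygen for 48 h (hypoxia/reoxygenation, a culture model of ischemia and reperfusion). The control group stayed in standard oxygen, and the sample titles name no genetic change in either group. Each list came from 1 library, an immunoprecipitate with an m6A antibody set against its input RNA, and the libraries are named H/R A, B and C and control A, B and C. All are 1 cell line, and nothing in the labels said that replicates came from separate cultures, so the p-values below cover no more than the spread among these samples, and that spread may be technical. Wherever 3 values are given for a group, they stand in the order A, B and C.

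Cadherins are calcium-dependent adhesion proteins built from repeated extracellular cadherin domains. Classical cadherins such as N-cadherin (Cdh2) hold neighbouring cells together at adherens junctions through catenins, and N-cadherin keeps neural stem cells attached to each other in the developing brain. The Fat genes encode very large cadherins that act in tissue polarity and growth, and the Celsr genes encode seven-pass receptors of planar cell polarity. The clustered protocadherins lie side by side on chromosome 18 in an alpha, a beta and a gamma cluster, and give neurons different surface identities. Every alpha or gamma mRNA joins its own large variable exon, which encodes the extracellular domains, to the same 3 constant exons of its cluster, which encode a shared cytoplasmic tail. The beta genes consist of a single large exon each and have no constant exon.

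The lists differed in length, with 18706, 13954 and 22038 mRNA peaks in the H/R libraries and 12180, 8932 and 7863 in the control libraries. A longer list can hold more weak peaks from the same RNA, and the read totals behind the lists were not used here. The presence of a peak also depends on how much of the transcript a cell holds, so more methylation and more transcript cannot be told apart in these lists. Among 10 neural stem or progenitor markers, Nes, Sox2, Msi1, Sox9, Cdh2 and Notch1 had a peak, and Vim, Msi2, Pax6 and Fabp7 had none. A peak was present in 2 of 6 neuron markers, 1 of 5 astrocyte markers, 2 of 6 oligodendrocyte markers and 3 of 5 mesenchymal markers. None of the 223 peaks of the family, and 15 of all 83673, had a false discovery rate of 5% or less in the deposited column.

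The first question was how many of these genes were methylated in each group. Family genes with a peak numbered 33, 18 and 30 in the H/R libraries, against 20, 17 and 13 in the control libraries. The H/R group averaged 27.0 ± 7.94 genes and the control group 16.7 ± 3.51 (SD, n = 3 each), and the groups overlapped because H/R B lay below control A (two-sided exact permutation p = 0.2, where 3 libraries against 3 allow no p below 0.1). Peaks on these genes numbered 58, 32 and 54 in the H/R libraries, against 34, 25 and 20 in the control libraries (two-sided exact permutation p = 0.2). As a share of all genes called in a list, the family made up 0.271% to 0.407% in the H/R group and 0.276% to 0.326% in the control group. When every list was reduced to its 7863 peaks with the highest p score, 13, 14 and 15 family genes remained in the H/R libraries and 14, 15 and 13 in the control libraries. This p score stands for −log10 of the peak caller's p, multiplied by 10. The excess of family genes in H/R A and C was therefore present in the full lists and absent from lists of equal length.

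**Figure D1:**
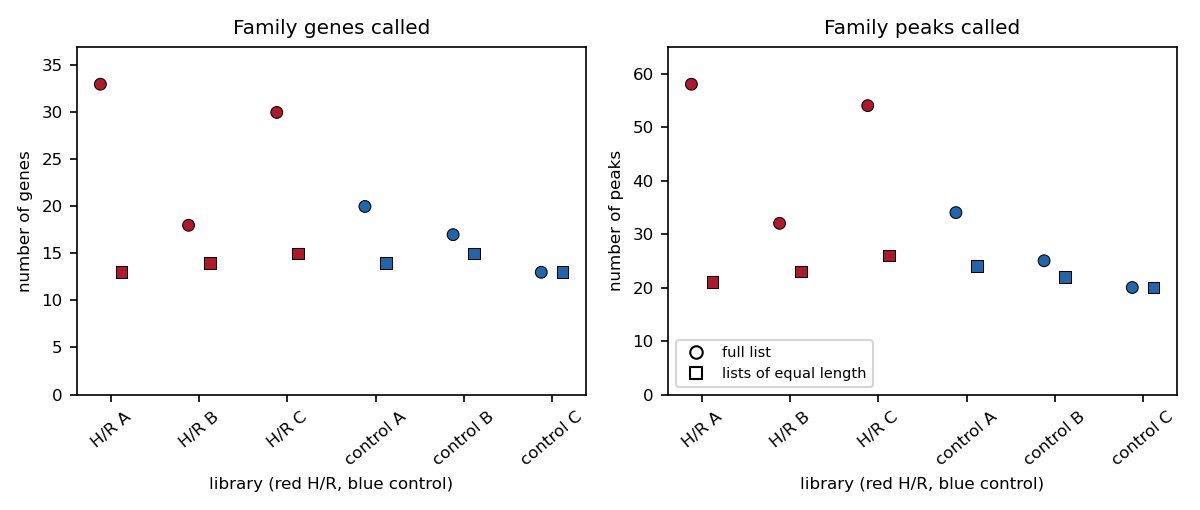
Family genes (left) and family peaks (right) per library, as numbers on vertical axes that start at 0. Circles show the full lists and squares the lists of equal length; H/R libraries are red and control libraries blue. Full lists range from 13 to 33 genes, lists of equal length from 13 to 15.

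A total of 11 genes had a peak in all 6 lists: Fat1, Fat4, Pcdh7, Pcdh19, Pcdhac2, Pcdhb16, Pcdhb17, Pcdhb18, Pcdhb20, Pcdhb22 and Pcdhgc3. This is 27.5% of the family, against 39.5% of all genes. A gene or region is termed H/R-only here when every H/R list and not 1 control list held it, and control-only in the opposite case. No family gene was H/R-only, as 4.96% of all genes were, and none was control-only, as 0.0698% of all genes were. The 29 other genes comprised 11 with peaks in both groups and 18 (45%) with peaks in at least 1 H/R list and no control list, against 31.2% of all genes. No family gene appeared in control lists alone, as 1.99% of all genes did. Of those 18, 9 were called in H/R A alone, 6 in H/R C alone and 3 in H/R A and C, and none in H/R B. Of the 18, 1 is so placed by its symbol alone, since the exon of Pcdhb21 lay in peaks listed as Pcdhb22 in control A and C. The 23 peaks of these genes had a median p score of 70.3, and 16 of them scored below 100 in lists whose lowest score was 50. The highest scores were 2058.42 for the Pcdhb21 peak and 325.9 for Cdh24. Leaving out H/R B made Fat2, Pcdhga7 and Pcdhgb6 H/R-only, while 11.7% of all genes then showed that pattern. Leaving out control A did so for Cdh13, when 10.8% of all genes showed it. Leaving out any of the other libraries yielded no such gene.

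**Figure D2:**
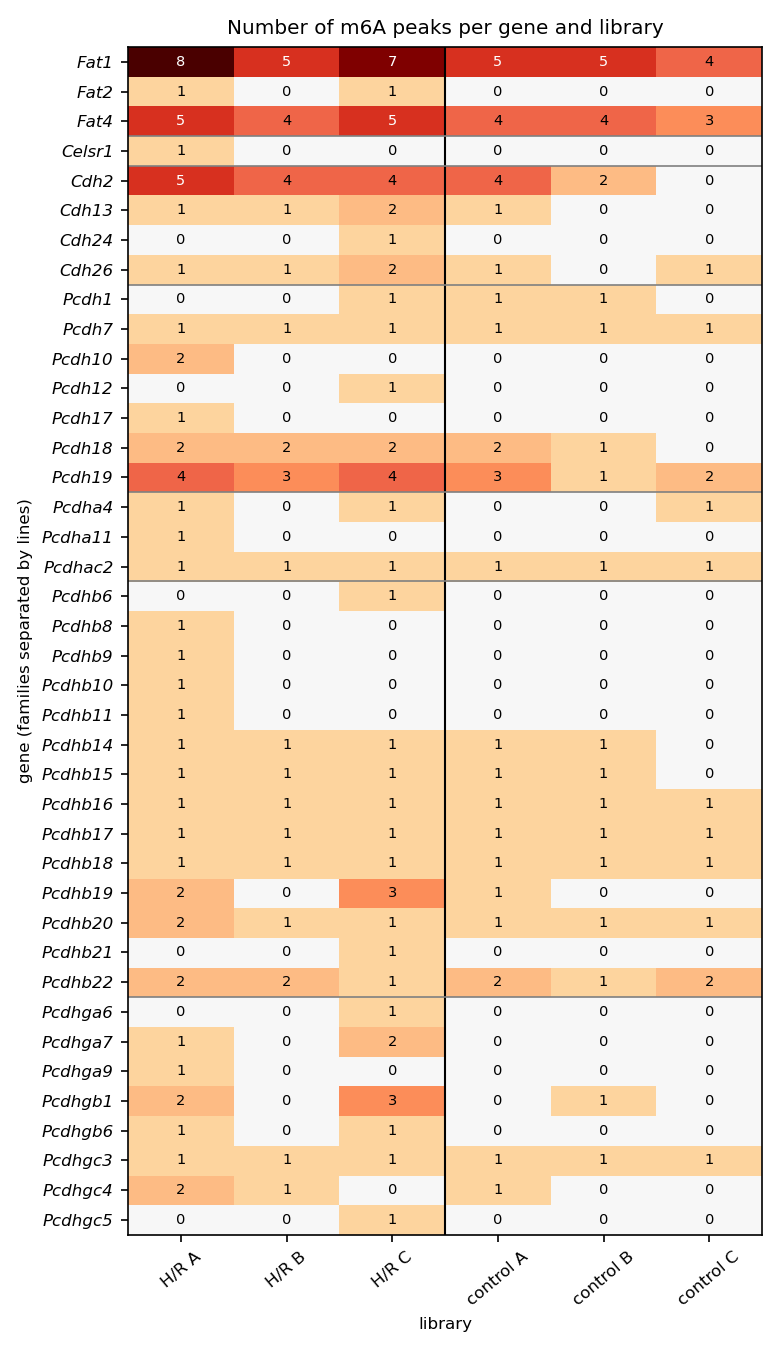
Number of mRNA peaks per gene (rows, grouped by family) and library (columns). Fat1 has 4 to 8 peaks in each library, and the genes called in H/R lists only stand in the columns of H/R A and H/R C.

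A further 59 symbols of the family that RefSeq annotates as protein coding named no peak, and none of them was listed under an older symbol. For alpha and gamma genes this concerns the symbol only, because a peak in a shared exon carries 1 symbol but lies on the mRNAs of the whole cluster. By symbol, a peak was listed for 4 of 23 Cdh genes, 1 of 3 Celsr genes, 3 of 4 Fat genes, 7 of 12 protocadherins outside the clusters, 3 of 14 alpha, 14 of 22 beta and 8 of 21 gamma genes. The share of all annotated protein-coding genes with a peak was not computed, so these counts cannot be compared with genes in general. Cdh1 (E-cadherin), Cdh5 (the endothelial cadherin), Cdh11, Celsr2, Celsr3, Fat3 and Pcdh9 were among those without a peak in any mRNA list.

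Overlapping peaks of the 6 lists were merged into 70 family regions. Of these, 16 (22.9%) were called in all 6 lists, against 22.0% of all 27079 regions. In 22 of the 43 regions found in at least 2 lists, every list gave identical start and end positions, and each of the 22 was a whole exon. Consequently, the length of such a peak is the length of an annotated exon and not the width of the methylated stretch. H/R lists alone held 35 of the 70 regions, against 50.5% of all regions, and control lists alone held none. A single family region was H/R-only, in Cdh2, which is 1.43% of family regions against 6.21% of all regions. No family region was control-only, as 0.0628% of all regions were. The count in favour of H/R was 7 without H/R B, 4 without control A and 2 without H/R A, when 14.4%, 11.4% and 8.86% of all regions were so called.

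Short stretches of regions outside the protocadherin clusters are shown to make the methylated exons concrete. Sequences are the mm10 reference, 5′ to 3′ on the strand of the transcript, and the capitals mark GGAC, the core of the consensus that the m6A methyltransferase recognises. Each is the 30-base stretch around the GGAC nearest to the middle of a region called in all 6 lists, in the order of the region's lowest p score. The stretches lie at chr8:45051423-45051452 and chr8:44951778-44951807 (Fat1, + strand), chrX:133687033-133687062 (Pcdh19, − strand), chr3:39010572-39010601 and chr3:38889445-38889474 (Fat4, + strand) and chr5:57720112-57720141 (Pcdh7, + strand).
Fat1, last exon, 3′UTR: ccccaaagtgcctGGACtttcatgaaccta
Pcdh19, first exon, coding: ctccgcacctggtGGACatcaaccccagct
Fat4, exon 17, coding: cagaaggtaccatGGACgcagggctgaggg
Fat1, large 5′ coding exon: cctctgagaatctGGACtatgaactgatgc
Pcdh7, first exon, coding: tgtaggggtcaatGGACagatcgagtatgt
Fat4, first exon, coding: tcatcactaccggGGACcagcgagggatgt
GGAC (searched as these letters on the transcript strand) occurred in 59 of the 69 family regions whose strand was known, and in 66.8% of all regions. Long windows nearly always hold it, since 99.8% of regions with a peak of at least 1500 bases did. Counted per 1000 bases, peaks of the family held 5.29 to 5.44 GGAC in the H/R lists and 5.25 to 5.53 in the control lists, while other peaks held 4.39 to 4.64 and 4.38 to 4.61. A match marks letters only and does not place the modified base.

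Fat1, a giant cadherin that restrains growth and guides cell polarity, carried the most peaks of the family. There were 8, 5 and 7 peaks in the H/R libraries, against 5, 5 and 4 in the control libraries, in 8 regions on chromosome 8. Of these regions, 4 were called in all 6 lists with identical coordinates, and each was a whole exon of 3274, 4068, 463 or 1477 bases. The exon of 1477 bases (chr8:45050781-45052257) is centred in the 3′UTR, and the other 3 are centred in coding sequence. Here and below, an exon is named by the class of its centre. Exons of 802 and 154 bases were called in H/R A and H/R C only, with p scores between 449.6 and 628.4. At the 3′UTR exon the fold enrichment, which is the ratio of the immunoprecipitate to the local background in the peak caller, was 23.64, 26.03 and 21.76 in the H/R libraries, against 37.93, 45.42 and 36.75 in the control libraries. Every H/R value there was below every control value (two-sided exact permutation p = 0.1, n = 3 each). The same held for 54.3% of all 5950 regions called in all 6 lists, which is the background for each such separation below. The large 5′ coding exon of Fat1 had overlapping values of 9.02, 9.55 and 9.74 in the H/R libraries and 9.29, 13.7 and 9.2 in the control libraries (exact permutation p = 0.8).

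Fat4, the receptor of Dachsous in planar polarity, carried 5, 4 and 5 peaks in the H/R libraries, against 4, 4 and 3 in the control libraries. Its first exon was called over the same 5195 bases in all 6 lists (chr3:38886940-38892134), which made it the longest peak of the family. There the fold enrichment was 16.7, 23.8 and 24.6 in the H/R libraries, against 15.9, 17.1 and 11.8 in the control libraries, so that H/R A fell within the control range (exact permutation p = 0.2). This was the single family region called in all 6 lists whose mean was higher in H/R. Exon 17 (chr3:39008981-39011985) ran the other way, with 17.5, 20.5 and 29.5 in the H/R libraries, against 36.0, 47.0 and 33.2 in the control libraries (exact permutation p = 0.1). A coding exon of 4350 bases between them was missing from 1 control list only, and an exon of 308 bases was called in 2 H/R lists and no control list. Fat2 had a weak 3′UTR peak of 223 bases in 1 H/R list and another of 218 bases in a second, with p scores of 179.3 and 55.8.

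Cdh2 carried 5, 4 and 4 peaks in the H/R libraries, against 4, 2 and 0 in the control libraries, in 6 regions that were all whole exons. The coding exon at chr18:16629459-16629712 (254 bases) was the H/R-only region, with fold enrichments of 4.13, 9.75 and 11 and p scores of 219.8, 143.1 and 1310 in the H/R libraries. It dropped out of 1 or more H/R lists when lists were reduced to equal length or to peaks enriched at least 10-fold. A further coding exon at chr18:16622128-16622267 (140 bases) was called in each H/R list and in control A and B. Its fold enrichment was 7.04, 17.9 and 10.6 in the H/R libraries, against 9.67 and 25.8 in control A and B. The 5′UTR exon at chr18:16808335-16809246 (912 bases) was present in all 3 H/R lists and control A. Cdh2 was thus absent from control C alone, the shortest list.

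Other classical and atypical cadherins had few peaks. Cdh26 was called in a 3′UTR exon (chr2:178486745-178487366, 622 bases) in each H/R list and in control A and C. Its p scores there were 500.3, 116.4 and 439.9 in the H/R libraries, against 79.6 and 58.5 in control A and C, so that it became an H/R-only gene once a p score of at least 100 was required. Under that limit 5.97% of all genes were H/R-only. Cdh13 (T-cadherin, which lacks a cytoplasmic tail) was called in each H/R list and in control A, with p scores between 61.0 and 171.7. Cdh24 had a single peak, in H/R C, and Celsr1 a single peak of 9 bases, in H/R A.

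Among protocadherins outside the clusters, Pcdh19 and Pcdh7 were the most strongly called. Pcdh19, a protocadherin that partners N-cadherin, carried 4, 3 and 4 peaks in the H/R libraries, against 3, 1 and 2 in the control libraries. Its first exon (chrX:133685118-133688993) was called over 3873 to 3876 bases in every list, with fold enrichments of 17.5, 15.3 and 17.3 in the H/R libraries, against 26.3, 28.7 and 31.2 in the control libraries. The groups did not overlap there (exact permutation p = 0.1, n = 3 each). A coding exon of 328 bases was called in all 3 H/R lists and control A. Pcdh7 had 1 peak in each list, over 3910 to 4258 bases at its first exon, with 19.8, 26.7 and 37.7 in the H/R libraries and 47.9, 41.8 and 47.9 in the control libraries (exact permutation p = 0.1). Pcdh18 was called in its first exon in all 3 H/R lists and control A, and in its 3′ exon in all 3 H/R lists and control A and B. The peak in that 3′ exon spanned 1037, 1979 and 1413 bases in the H/R libraries and 1979 bases in control A and B, so that its centre fell in the coding sequence in H/R A, near the stop codon in H/R C and in the 3′UTR in the other 3 lists. Pcdh1 was called in H/R C and control A and B, whereas Pcdh10, Pcdh12 and Pcdh17 each appeared in a single H/R list with p scores below 100.

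The second question was where peaks lay in the clustered protocadherins. Symbols of the clusters named 91 peaks in 25 genes, of which 82 were centred in a variable or beta exon, 8 in a shared exon and 1 outside the RefSeq exons. In variable or beta exons there were 22, 11 and 20 peaks in the H/R libraries, against 12, 9 and 8 in the control libraries (two-sided exact permutation p = 0.2). In shared exons there were 3, 0 and 3 peaks in the H/R libraries, against 0, 1 and 1 in the control libraries (exact permutation p = 0.4). With lists of equal length the difference between group means was -0.33 peaks in variable or beta exons and 0.33 in shared exons. By length the clusters hold 165054 bases of variable or beta exons and 6219 bases of shared exons. Peaks covered 21.2%, 17.9% and 16.9% of the variable or beta bases in the H/R libraries, against 18.2%, 14.6% and 12.5% in the control libraries. Of the shared bases they covered 21.2%, 0% and 11.2% in the H/R libraries, against 0%, 0.949% and 11.9% in the control libraries. The libraries overlapped in both measures. Taken alone, the variable exons of the gamma cluster did not overlap, with 13.7%, 9.52% and 10.3% of bases covered in the H/R libraries, against 8.64%, 4.69% and 4.69% in the control libraries (exact permutation p = 0.1), whereas beta exons did (exact permutation p = 0.4). Alpha variable exons overlapped too. The gamma comparison was thus the only one by exon group without overlap, and it was not repeated with lists of equal length. The lists as a whole did not overlap either, with 13954 to 22038 peaks in the H/R libraries and 7863 to 12180 in the control libraries. The separation is therefore not particular to the gamma exons.

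In the alpha cluster a peak lay on 1 of 14 variable exons, that of Pcdhac2, a C-type isoform next to the shared exons, and it was called in every list. It spanned 2562 bases in 5 lists and 2518 bases in control C, and its fold enrichment was 21.6, 16.4 and 26.4 in the H/R libraries, against 25.45, 47.04 and 21.7 in the control libraries. In the gamma cluster the exon of Pcdhgc3, also a C-type isoform, was called over the same 2568 bases in all 6 lists. There the values were 14.6, 13.4 and 14.9 in the H/R libraries, against 15.2, 17.3 and 17.7 in the control libraries, without overlap but close to each other (exact permutation p = 0.1). Of the other C-type exons, that of Pcdhgc4 was called in H/R A and B and control A, that of Pcdhgc5 in H/R C, and that of Pcdhac1 in no list. The exons of Pcdhga6, Pcdhga7, Pcdhga9, Pcdhgb1 and Pcdhgb6 were called in H/R A or C only, with p scores of 68.0 to 264.1, and the peak of Pcdhga6 was 3 bases long.

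The beta cluster divided by position. Among the 13 genes from Pcdhb1 to Pcdhb13, exons with a peak numbered 4, 0 and 1 in the H/R libraries and 0 in each control list. Among the 9 genes from Pcdhb14 to Pcdhb22, at the 3′ end of the cluster, they numbered 9, 8 and 9 in the H/R libraries, against 9, 7 and 6 in the control libraries. The boundary was drawn after the values had been seen, so no test was made. The 5 exons of the upstream genes with a peak (Pcdhb6, Pcdhb8, Pcdhb9, Pcdhb10 and Pcdhb11) had p scores between 51.7 and 61.8. Downstream, the peak of Pcdhb16 spanned 2690 to 3063 bases and scored 3100, 1356 and 3100 in the H/R libraries, against 720.4, 300.3 and 254.8 in the control libraries. The value 3100 was shared by 38 family peaks and gives them no order. It was not the highest score of the family, since the Pcdhac2 peak scored 3188.15 in H/R A. The fold enrichment of Pcdhb16 was 11.6, 13.3 and 13.9 in the H/R libraries, against 16.0, 20.1 and 18.4 in the control libraries, with no overlap (exact permutation p = 0.1). Pcdhb14 and Pcdhb15 were missing from control C only, and Pcdhb19 was called in H/R A, H/R C and control A.

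**Figure D3:**
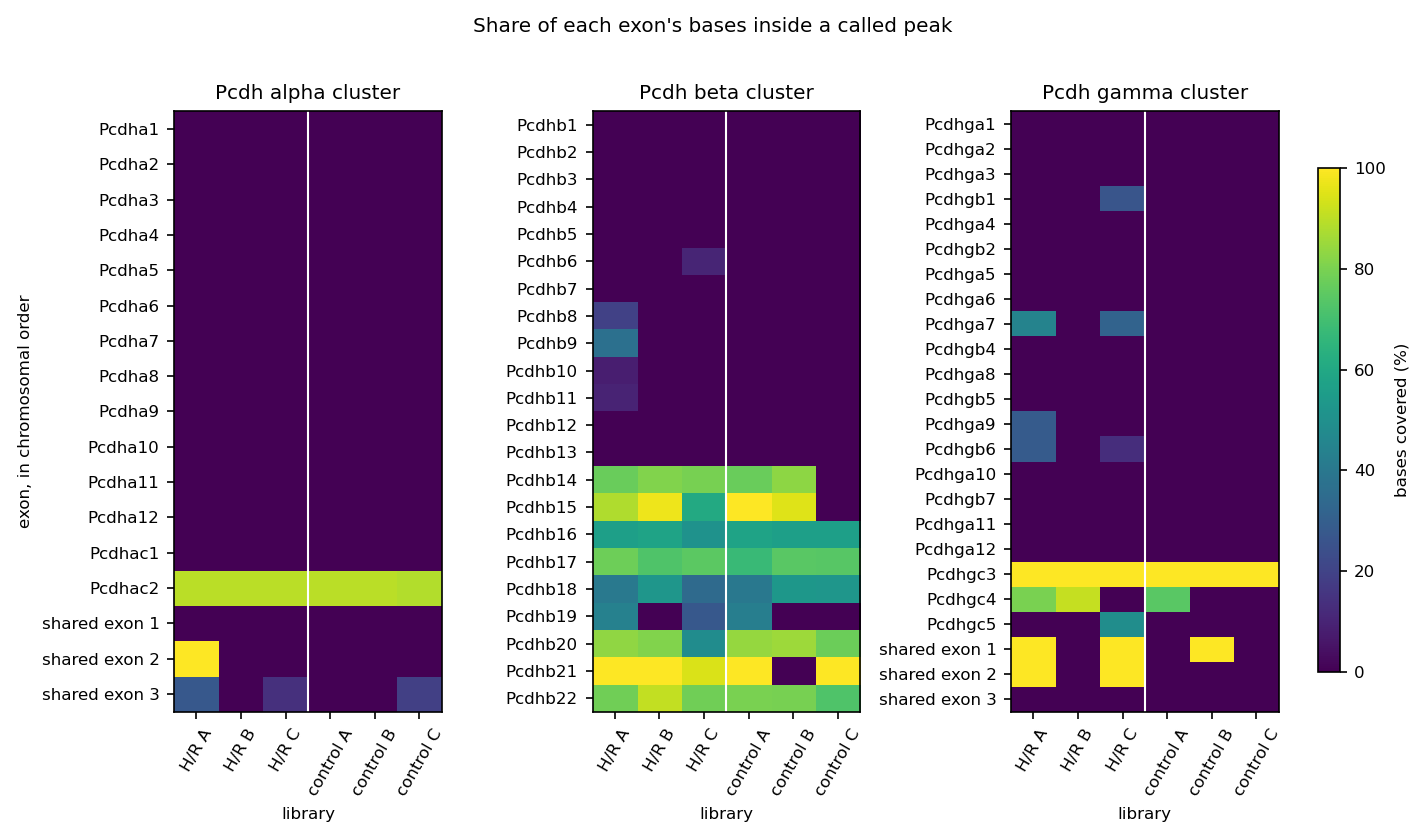
Share of the bases of each exon that lay inside a peak of any symbol, as a percentage on the colour scale, for the exons of the alpha, beta and gamma clusters in chromosomal order (rows) and the 6 libraries (columns). Pcdhac2, Pcdhgc3 and the beta genes from Pcdhb14 to Pcdhb22 other than Pcdhb19 are covered in at least 5 libraries; the 3-base peak of Pcdhga6 is too small to be seen.

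Fold enrichment was also compared at the other downstream beta exons. At Pcdhb17 the values were 11.9, 17.3 and 9.62 in the H/R libraries, against 20.1, 25.3 and 17.1 in the control libraries. Pcdhb18 had 11.99, 18.65 and 7.39 in the H/R libraries, against 15.95, 25 and 16.47 in the control libraries. In both genes H/R B reached into the control range (exact permutation p = 0.2 and p = 0.3). At Pcdhb20 all H/R values, 7.15, 14.4 and 10.0 in the H/R libraries, lay below the control values of 15.2, 21.19 and 28.95 in the control libraries (exact permutation p = 0.1). The exon of Pcdhb22 gave 17.01, 14.16 and 12.53 in the H/R libraries, against 22.95, 40.71 and 44.05 in the control libraries, also without overlap. That of Pcdhb21 gave 6.61, 20.62 and 14.87 in the H/R libraries, against 35.93 and 18.89 in control A and C. There H/R B lay above control C.

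Symbols in the lists did not always name the exon that held the peak. The exon of Pcdhb21 was covered in each H/R list and in control A and C, but the peak carried the symbol Pcdhb21 in H/R C alone and Pcdhb22 in the other 4 lists. Read by symbol, Pcdhb21 would therefore appear as a gene of 1 H/R list. The 3 peaks listed as Pcdha4 (H/R A, H/R C and control C) lay in the third shared alpha exon, over 1084, 550 and 741 bases. That exon belongs to all 14 alpha genes, so the symbol names no isoform. Of the 6 peaks listed as Pcdhgb1, 5 lay in shared gamma exons. The first of these exons (chr18:37825021-37825079, 59 bases) was called in H/R A, H/R C and control B, and the second (chr18:37833265-37833353, 89 bases) in H/R A and H/R C. The third, which holds the end of the coding sequence, had no peak in any list. The peak listed as Pcdha11 in H/R A began at the second shared alpha exon. Genes of a cluster resemble each other, and reads that fit several of them may have been split or dropped. Of all 100-base stretches in variable or beta exons, a median of 0.182% and at most 13.6% per exon occurred again within the clusters, and 0% to 0.536% for exons called in 5 or 6 lists. The median was 5.32% for alpha variable exons, 0.083% for beta exons and 0% for gamma variable exons. Within the beta cluster it was 0.545% from Pcdhb1 to Pcdhb13 and 0% from Pcdhb14 to Pcdhb22. Whether this bears on exons without a peak was not tested.

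The third question was whether peaks of these genes differed in length and position from other peaks. Peaks of the family had a median length of 980, 2608 and 819 bases in the H/R libraries, and 2387, 2654 and 2644 bases in the control libraries. The difference between groups, -1093 bases, did not exceed the spread (two-sided exact permutation p = 0.2), and it was -33.2 bases with lists of equal length. Peaks of at least 1500 bases numbered 21, 21 and 19 in the H/R libraries, against 22, 18 and 15 in the control libraries. Peaks of all other genes had a median of 295, 353 and 245 bases in the H/R libraries, and 499, 575 and 525 bases in the control libraries. Within each library, peaks of the family were longer, by 1600 bases on average over 6 of 6 libraries (two-sided exact sign-flip permutation test, p = 0.03125 and the same after Benjamini-Hochberg adjustment over 4 measures, the smallest that 6 libraries allow). Exon length moved with this result: exons that held a family peak had a median of 2566 to 2879 bases in the H/R lists and 2879 to 3168 bases in the control lists, against 259 to 347.5 and 515 to 592 bases for other peaks. Among peaks in exons of at least 2000 bases, a comparison added after the data had been seen, the difference was 669.7 bases.

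Most family peaks were centred in coding sequence, 84.2%, 84.4% and 77.8% in the H/R libraries, against 79.4%, 92.0% and 80.0% in the control libraries (two-sided exact permutation p = 0.8 between groups). The 3′UTR held 12.3%, 12.5% and 13% in the H/R libraries, against 17.6%, 8.0% and 15.0% in the control libraries (exact permutation p = 0.7). Other genes had 55.8%, 56.8% and 57.2% of peaks in coding sequence in the H/R libraries, and 53.3%, 55.0% and 56.0% in the control libraries. The family exceeded them by 27.3 percentage points on average, in 6 of 6 libraries (exact sign-flip permutation p = 0.03125, adjusted 0.03125). Peaks that covered a whole exon made up 43.1% to 62.5% of family peaks and 59.9% to 72.3% of other peaks per library. The class of such a peak is that of the exon's centre and does not place the methylated stretch. The p-value is therefore no evidence of a distinct placement of m6A, and the part of exon structure in the difference was not tested. Among peaks in exons of at least 2000 bases the difference was 58.2 points. In such exons, 51.4% to 58.6% of the peaks of other genes were centred in the 3′UTR and 31.4% to 38.9% in coding sequence. Family peaks had a lower median fold enrichment than other peaks in 6 of 6 libraries, 7.595, 14.68 and 9.68 against 9.34, 15.5 and 10.05 in the H/R libraries, and 15.9, 25.3 and 19.0 against 21.8, 33.9 and 28.0 in the control libraries (exact sign-flip permutation p = 0.03125). They also numbered fewer per called gene, 1.67 ± 0.137 against 2.03 ± 0.324 (SD, n = 6 libraries, exact sign-flip permutation p = 0.03125), but this difference shrank to -0.053 peaks with lists of equal length (exact sign-flip p = 0.3125). Of the 223 family peaks, 129 lay on the 11 genes called in all 6 lists. The sign-flip tests thus measured many of the same genes again in each library, and their p-values do not cover the spread among genes.

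**Figure D4:**
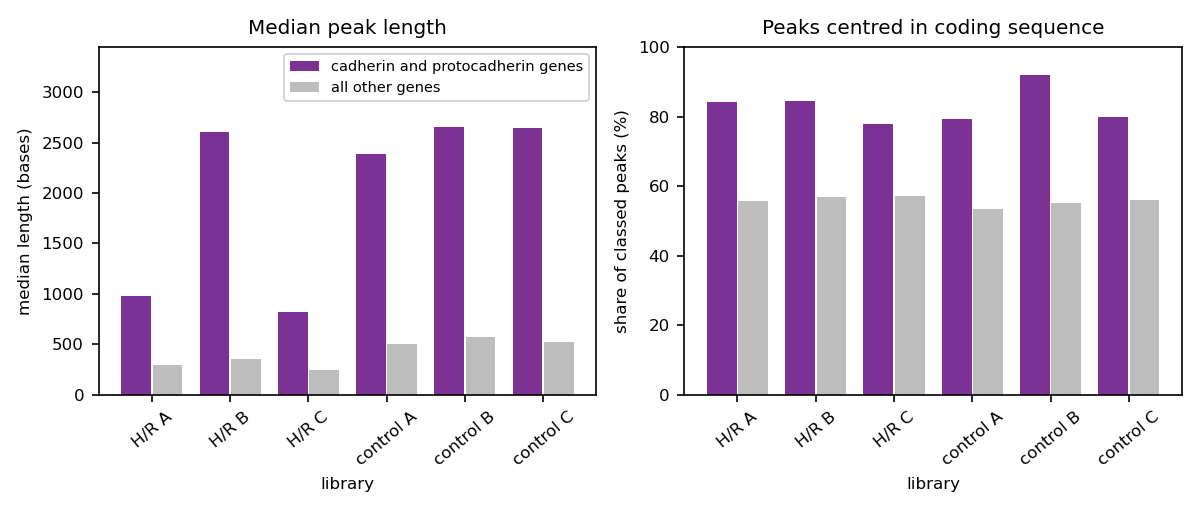
Median peak length in bases (left) and share of classed peaks centred in coding sequence in percent (right) for cadherin and protocadherin genes (purple) and all other genes (grey) in each library; bars start at 0. The purple bar is the taller in every library, from 819 against 245 bases in H/R C to 2654 against 575 bases in control B.

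Over the 16 family regions called in all 6 lists, the fold enrichment of every H/R library was below that of every control library in 9 (56.2%) and above it in none. This is the background of these lists: 54.3% of all 5950 regions called in all 6 lists had every H/R value lower, and 0.168% had every H/R value higher. The median of log2 H/R over control was -0.64 for the 16 regions and -0.78 for all regions. The region that joins the exons of Pcdhb21 and Pcdhb22 entered with the higher value of each library. Fold enrichment was not normalised between libraries, so that these values are relative to each library's own background.

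**Figure D5:**
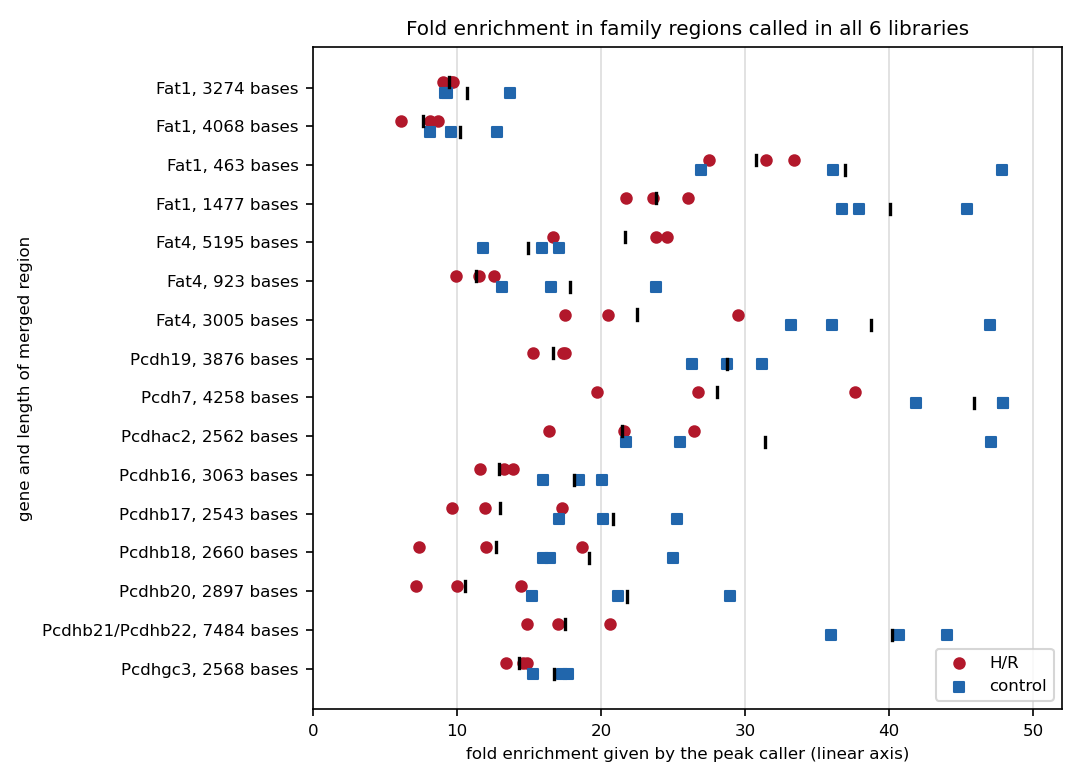
Fold enrichment (horizontal, linear axis from 0) in the 16 family regions called in all 6 lists, with a red point for each H/R library, a blue square for each control library and a black bar for each mean. In 9 of the 16 rows every H/R value lies left of every control value, and only at the first exon of Fat4 (5195 bases) is the H/R mean the higher; the row of Pcdhb21/Pcdhb22 joins 2 neighbouring exons and shows the higher value of each library.

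Partners of these proteins were described from lists of genes. Of 21 catenins and junction partners, 14 had a peak, called in 11, 10 and 14 genes in the H/R libraries, against 9, 9 and 8 in the control libraries. Of these, 4 stood in the lists under older symbols and were matched through RefSeq: afadin (Mllt4) and nectins (Pvrl1, Pvrl2 and Pvrl3), which form adhesions beside the cadherin junction. Pkp2 (plakophilin 2, a desmosomal plaque protein) was the single H/R-only gene, with fold enrichments of 8.0, 8.06 and 14.3 in the H/R libraries. Of 22 planar polarity and Fat-Dachsous partners, 15 had a peak, 11, 12 and 15 in the H/R libraries, against 10, 9 and 8 in the control libraries, and none was H/R-only. Of 22 regulators and effectors of the protocadherin clusters, 20 had a peak, 18, 18 and 19 in the H/R libraries, against 14, 15 and 15 in the control libraries. Setdb1, the histone methyltransferase that silences parts of the clusters, was H/R-only, with fold enrichments of 8.9, 10.2 and 7.9 in the H/R libraries. Of 20 other cadherin superfamily genes, 3 had a peak. No gene of these 4 lists was control-only. The H/R-only and control-only counts are set against the same 4.96% and 0.0698% of all genes. Over all genes, those with a peak numbered 8114, 6639 and 8936 in the H/R libraries, against 6470, 5208 and 4707 in the control libraries. The higher counts per library in these partner lists are therefore not particular to them.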

How the data were processed

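RNA of C17.2 cells was fragmented, part was immunoprecipitated with an m6A antibody, and both fractions were sequenced (12 samples, 3 immunoprecipitates and 3 inputs per group). As the methods and the submitters' processing notes state, the authors trimmed reads with cutadapt (version 1.9.3), aligned them with HISAT2 (version 2.0.4) to mm10, called peaks per library with MACS and kept the parts on exons. Replicates were not pooled. The deposited lists give a score (10 times the −log10 p), the fold enrichment (a ratio to the local background) and a false discovery rate in percent. Peak length was computed from start and end. Read depths are not part of the lists, so no interval was computed.

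The 6 mRNA lists were used, and the lncRNA and circRNA lists only beside them. Peaks were classed by their centre on the listed transcript, or on a RefSeq or GENCODE model of the same build (100 bases around start and stop codons taken first). In this way 96.1% were classed. Regions were merged on 1 shared base. Groups were compared over libraries by exact permutation tests, and the family with other genes by sign-flip tests within libraries. Genes of other lists were matched by symbol or by a RefSeq synonym. The tests were written in Python (version 3.11.15). Counting was checked on simulated lists. Alternatives were lists of equal length, a fold enrichment of at least 10, a p score of at least 100, other merging, exon and gene rules, and leaving out each library. Members, gene lists and alternatives were chosen with earlier results of these data known. Genes described by library were those called in all 6 lists, those called in 1 group only, all clustered protocadherins with a peak, the 3 with the most merged regions and the 5 with the highest p score. Some values per library are also given for Cdh26 and Pcdh18, which lie outside this rule.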

Additional observations from a re-analysis of the deposited data

Results flagged for a closer look

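The lncRNA and circRNA lists, which the comparisons above did not use, held more peaks at the loci of these genes in the H/R libraries than in the control libraries. The lncRNA lists held 7 such peaks over the 3 H/R libraries (2, 1 and 4 in libraries A, B and C of the H/R group) and 1 over the 3 control libraries (in control B). They included antisense transcripts of Fat1 (AK133166, H/R C, fold enrichment 4.69) and of the gamma cluster (Gm26672, H/R C, fold enrichment 12.4). 2610316D01Rik, bidirectional to Pcdh10, reached 7.33-fold enrichment in H/R C and 26.7-fold in control B. The circRNA lists held 6 such peaks over the 3 H/R libraries (3, 1 and 2 in libraries A, B and C of the H/R group) and 1 over the 3 control libraries (in control A), on Fat1 and Pcdh19, and every one of them also stood in the mRNA list of its library. The lists of the H/R libraries were longer, at 2649, 1980 and 3243 lncRNA peaks in libraries A, B and C of the H/R group against 1594, 1115 and 1047 in A, B and C of the control group. The circRNA lists held 1625, 1329 and 1947 peaks in libraries A, B and C of the H/R group against 1076, 809 and 705 in A, B and C of the control group. The part of list length in these counts was not tested.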

How the results depend on the processing

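No paired analysis was possible because nothing links the letters A, B and C of the lists with replicate numbers. At equal list length, H/R minus control came to -0.33 for peaks in variable or beta exons and 6.92 points for the coding share and -7.82 points for the 3′UTR share (exact permutation p = 0.1, the smallest possible), and the single H/R-only region was lost (0). Among peaks enriched at least 10-fold, the differences were -0.67 for family peaks and -0.67 for peaks in variable or beta exons, and 0 regions were H/R-only. With a p score of at least 100, 1 gene (Cdh26) and 3 regions were H/R-only, and the 3′UTR share differed by 0.966 points. It differed by 0.538 points when each base was counted. Peaks per gene against other genes differed by -0.053 with lists of equal length and by -0.18 with a p score of at least 100, past the threshold in neither (exact sign-flip p = 0.3125 and 0.09375). The cause was not tested.

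Leaving out each library gave 0 to 3 H/R-only genes, 1 to 7 H/R-only regions, coding shares that differed by -3.88 to 2.42 points and 3′UTR shares that differed by -3.74 to 1.08 points. The coding share changed sign without H/R C or control B, and the 3′UTR share without control A. Against other genes, the ranges were 1469 to 1805 bases, -5.21 to -3.48 in fold enrichment, 25.3 to 28.6 points and -0.39 to -0.29 peaks per gene, with a sign-flip p of 0.0625, the smallest that 5 libraries allow. Of 154 values under an alternative, 110 were classed as unchanged. For counts this meant equal or nearly equal numbers, which include counts of 0 that stayed 0. For tests it meant the same direction and the same side of 0.05. Comparisons of H/R with control could not reach 0.05 with so few libraries, so their side of it was fixed in advance. The tally is therefore no measure of robustness. Depth per library was not used, so that absence from a short list such as control C is no sign that a gene was unmethylated.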
